A study of Mus musculus with 22 samples.

Results

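Gastruloids are aggregates of embryonic stem cells that form tissues of the post-implantation embryo in culture. The 11 gastruloids described here were collected on day 4 in pool B of the second MULTI-seq experiment, and the authors' deposited cell table classes 3 of them as neural and 8 as mesodermal. They were chosen as the day 4 gastruloids of that pool with at least 30 barcoded cells, 11 of 12, and they make up 11 of 136 gastruloids and 1510 of 53730 gastruloid-assigned cells of the series. In MULTI-seq each gastruloid is dissociated on its own and its cells are tagged with a lipid-anchored DNA barcode, so that a cell from a pooled 10x Genomics run can be traced to its gastruloid. The series as a whole asks how far gastruloids of the same age differ from each other.

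Both classes came from the same wild-type mouse embryonic stem cell line, E14Tg2A, and received the same treatment. Wells were seeded with 300 cells in N2B27 medium, left 48 h to aggregate, and then exposed to 3 µM CHIR99021, which blocks GSK3 and so switches on Wnt signalling. Nothing in the labels separates the neural from the mesodermal gastruloids: the sources used here do not give how the authors set the class. The members of each class are treated here as chosen by measured values, their cell-type makeup, so cell-type shares and expression summed over whole gastruloids are descriptions of the classes and carry no test. Levels within cells of 1 cluster name, and depth, were tested, with the gastruloid as the replicate. The cluster names are themselves groups of gene expression, so those tests are conditional on the naming.

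In the embryo, the caudal epiblast and its neuromesodermal progenitors supply both the spinal cord and the presomitic mesoderm, from which somites bud. Wnt and FGF signals keep the progenitors caudal, T and Tbx6 accompany the mesodermal route, and Sox2 and Sox1 the neural one. Retinoic acid, made by Aldh1a2 in somites and broken down by Cyp26a1 in the tail, promotes neural differentiation.

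Pool B also held day 4.5 gastruloids and came as 2 samples, with 89671084 and 90928105 UMIs (unique molecules counted) in all barcodes. Their titles call them sample 2 and sample 3, and they are taken here to be lanes 2 and 3 of the pool. Both classes were in both lanes, and each lane gave 755 of the 1510 cells. The barcode call named 1 gastruloid for 90.2% and 87.9% of the final cells in lanes 2 and 3, and 4 cells of the pool, 1 of them in these gastruloids, carried a cell barcode seen in both lanes. UMIs per gastruloid ran from 1873324 to 2749808 in the neural class and from 1766803 to 7774717 in the mesodermal class.

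The neural gastruloids consisted mostly of caudal neurectoderm and early spinal cord cells and held no somite cell, whereas presomitic mesoderm was the most frequent group in the mesodermal class. Cells with a neural name made up 68.9% of Bar2, 63.0% of Bar25 and 90.0% of Bar49, a mean of 74.0% ± 14.2 (SD, n = 3). The share in the mesodermal gastruloids was 3.85% ± 4.92 (SD, n = 8), with a lowest value of 1.13%, a median of 2.27% and a highest of 15.9% in Bar6. Exact Clopper-Pearson 95% intervals, which cover counting error only, ran from 55.7% to 80.1% for Bar2 and from 52.3% to 72.9% for Bar25. Among the neural names, Caudal Neurectoderm held 36.2% ± 5.31 of the neural gastruloids' cells and Early Spinal Cord 25.0% ± 4.02 (SD, n = 3). Of the 9 Caudal Neurectoderm and 24 Early Spinal Cord cells in all mesodermal gastruloids together, Bar6 supplied 8 and 17.

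Presomitic mesoderm cells were 1.64%, 10.9% and 5.0% of Bar2, Bar25 and Bar49, against 38.6% ± 14 (SD, n = 8; 20.7% to 59.0%) in the mesodermal class. Somite names were absent from all 213 neural-gastruloid cells: 0 of 61, 0 of 92 and 0 of 60 cells allow shares of up to 5.87%, 3.93% and 5.96% (exact upper bounds). In the mesodermal class somites were unevenly spread, with 47.6% of cells in Bar56, 33.3% in Bar55, 18.7% in Bar12, 17.9% in Bar28, and between 0 and 3.28% in the other 4. Mature Endoderm was 7.2% ± 3.98 of mesodermal gastruloids and 0.723% ± 1.25 of neural ones. The name groups that hold the shared progenitors overlapped between the classes. Caudal epiblast and neuromesodermal progenitors (NMPs) were 21.3%, 22.8% and 3.33% of Bar2, Bar25 and Bar49 and 2.5% to 27.4% of the mesodermal gastruloids, highest in Bar6.

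**Figure D1:**
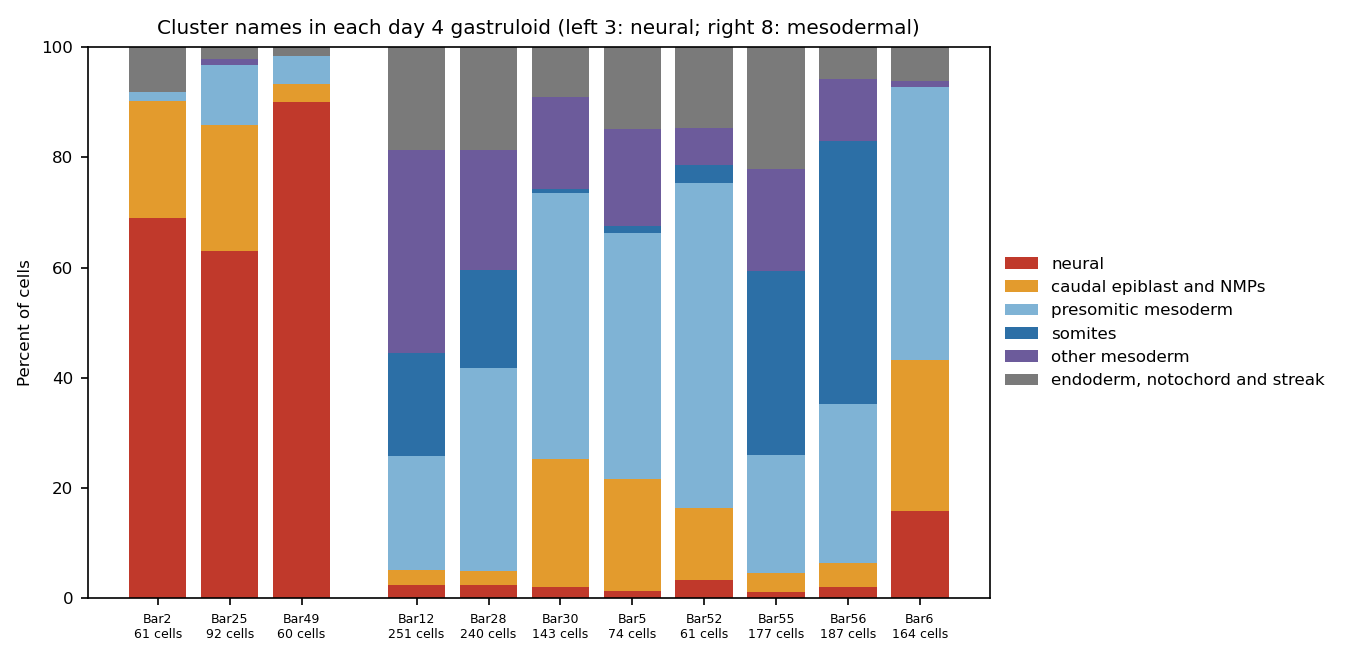
Percent of cells (vertical axis) in each group of cluster names for each of the 11 gastruloids (horizontal axis, with its number of cells), the 3 neural gastruloids on the left and the 8 mesodermal ones on the right. Neural names fill 63.0% to 90.0% of the left bars and 1.13% to 15.9% of the right ones, and somites appear on the right alone, most in Bar56.

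The neural share depended on whose cell types were used. When the authors' mapping of each cell to an embryo reference replaced their cluster names, neural types made up a mean of 27.5% (16.3% to 41.7%) of the neural gastruloids' cells and 0.546% (0 to 1.83%) of the mesodermal ones. The classes did not overlap in this share either. Of the 77 Caudal Neurectoderm cells in the neural gastruloids, 35 mapped to embryonic caudal epiblast. The reference stage to which cells mapped had a median of embryonic day 8.0 in every gastruloid but Bar52, where it was 7.75. Mean mapped stage was 7.94 to 8.05 in the neural class, inside the 7.79 to 8.29 of the mesodermal class.

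Transcripts were also summed over whole gastruloids; in such a sum, fewer cells of a type and less RNA per cell cannot be told apart. Values are CPM, a gene's UMIs scaled to a common total of UMIs per sum, given for Bar2, Bar25 and Bar49 in that order and as the lowest, median and highest of the 8 mesodermal gastruloids, and ratios are log2 of mean CPM + 1, neural over mesodermal. Of 7401 genes with a mean of at least 10 CPM, the classes did not overlap for 770 with neural higher (10.4%) and 742 with neural lower (10%). These counts are a description and not a test, since the class is treated as read from the same cells.

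Several neural progenitor genes were higher in the neural gastruloids, among them Sox2, Sox3 and Hes3, while Crabp1 was lower. Sox1, a transcription factor of the committed neural plate, stood at 18.2, 13.1 and 41.7 CPM against 0.711, 1.70 and 2.36 (log2 ratio 3.30). Sox2, which marks progenitors and neural plate, stood at 82.2, 52.7 and 81.8 CPM against 7.56, 13.8 and 19.7 (log2 ratio 2.32). All 3 neural gastruloids were above all 8 mesodermal ones for both genes, with Bar25 the lowest of the 3. Hes3, a bHLH repressor of progenitors, was at 104.6, 82.2 and 122.0 CPM against 1.97, 4.49 and 20.7, and the 20.7 belonged to Bar6 (log2 ratio 3.84). Crabp1, a retinoic-acid binding protein of the same list, went the other way, at 5.87, 31.3 and 5.45 CPM against 70.9, 136.6 and 288.7 (log2 ratio -3.35). Of 17 measured members of the neural progenitor list, 8 were higher without overlap (Fgfbp3, Gbx2, Hes3, Ncam1, Sfrp2, Sox2, Sox3 and Zic5) and 1 lower, with a median log2 ratio of 0.77 against -0.01 over all genes. Sox1, with a mean under 10 CPM, is not among the 17.

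The caudal progenitor genes split. Nkx1-2, a homeobox gene of the caudal lateral epiblast, was at 163.3, 162.2 and 155.2 CPM against 6.97, 19.5 and 63.2 (log2 ratio 2.65). Cdx2, a posterior homeobox factor, was at 342.2, 338.9 and 313.4 CPM against 35.4, 71.4 and 178.3 (log2 ratio 1.88). The neural class was above the mesodermal one without overlap for both, and Bar6 was the highest mesodermal gastruloid for both. T, the brachyury factor, overlapped at 108.9, 106.6 and 35.2 CPM against 46.1, 131.4 and 197.0 (log2 ratio -0.56), with Bar49 below all others. Cyp26a1, which degrades retinoic acid, was at 0.534, 0.727 and 0 CPM against 3.65, 12.5 and 33.5 (log2 ratio -3.45). Over the 15 measured genes of the caudal epiblast and NMP list, 7 were higher without overlap and 1 lower.

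Mesodermal lists ran the other way. Of 17 measured presomitic genes 12 were lower in the neural class without overlap and 0 higher (median log2 ratio -1.77), and of 11 somite genes 8 were lower and 0 higher (median -3.22). Ripply2, which helps set the somite boundary, was at 0.534, 0.364 and 0.496 CPM against 9.61, 25.4 and 51.8. Tcf15, a bHLH factor of the somite epithelium, was at 9.61, 8.001 and 3.97 CPM against 19.5, 158.4 and 350.5 (log2 ratio -4.33). Neither gene overlapped between the classes, although the lowest mesodermal Tcf15 value, in Bar30, was near the neural ones. Tbx6 and Meox1 did overlap: Tbx6, which specifies presomitic mesoderm, was at 8.01, 33.1 and 7.44 CPM against 21.9, 51.6 and 85.4. Bar25, the neural gastruloid with the most presomitic cells, gave the 33.1.

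The endoderm list had 7 of 15 members lower and 2 higher without overlap, the higher ones being Cdx2 and Bex1. Trh, a hormone precursor transcribed in gut endoderm, was at 0.534, 32.7 and 1.98 CPM against 109.8, 355.9 and 881.1 (log2 ratio -5.01). Sox17, an endoderm-specifying factor, was at 0.534, 6.18 and 0 CPM against 14.7, 34.1 and 101.3. Both had their highest neural value in Bar25 and their highest mesodermal value in Bar5.

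Among signalling genes the counts varied by list, where 10.4% of all genes were higher and 10% lower without overlap. Of 11 measured retinoic acid genes 8 were lower in the neural class and 1, Rarg, was higher, and Aldh1a2, the synthesising enzyme, was at 28.8, 65.5 and 27.3 CPM against 203.9, 292.7 and 440.9 (log2 ratio -2.85). Of 14 Notch genes 8 were lower and 0 higher; Dll1, a ligand of the segmentation clock, was at 18.7, 37.8 and 31.2 CPM against 58.3, 97.2 and 151.1. Of 19 Wnt genes 7 were higher and 3 lower, and Wnt8a, a ligand of the caudal epiblast, was at 56.1, 45.5 and 67.4 CPM against 3.601, 6.75 and 19. None of the 13 FGF genes separated the classes. At those shares over all genes, 0 of 13 FGF genes or 3 of 19 Wnt genes lower say little about a pathway. Some genes counted as Notch or retinoic acid, such as Dll1 and Aldh1a2, are also in the presomitic or somite lists. Fn1, the fibronectin of the mesodermal matrix, was at 40.0, 58.6 and 47.6 CPM against 286.5, 359.2 and 519.4.

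Among Hox genes, which encode position along the axis, the classes differed by gene and not by group number alone. Hoxb9 was at 296.8, 284.4 and 249.9 CPM against 8.28, 25.3 and 143.3 (log2 ratio 2.64), with the highest mesodermal value in Bar6. Hoxd9 was at 0.534, 2.55 and 0.496 CPM against 4.37, 12.9 and 50.0 (log2 ratio -2.99), with the highest in Bar30. Of the 7 measured genes of groups 5 to 9, Hoxb7, Hoxb8 and Hoxb9 were higher without overlap and Hoxd9 lower. In the cell cycle list 9 of 28 genes were higher without overlap and 0 lower, among them Pcna and 4 Mcm genes of DNA replication, with a median log2 ratio of 0.19. Cells called S phase in the authors' table were 29.5%, 25.0% and 33.3% of Bar2, Bar25 and Bar49. In the mesodermal gastruloids they were 17.9% to 26.2%, so the S shares overlapped, as did those of G2/M. Cells called G1 were 31.1%, 30.4% and 21.7% against 31.6% to 40.6%, without overlap, though Bar2 and Bar56 were close.

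The 8 mesodermal gastruloids were not alike. Bar12, Bar28, Bar55 and Bar56 had Tcf15 at 243.2 to 350.5 CPM and Cer1, a secreted antagonist of Nodal and BMP, at 59.6 to 101.0 CPM. Bar30, Bar5 and Bar6 had Tcf15 at 19.5 to 37.4 CPM, Cer1 at 2.35 to 4.33 CPM, and higher Cdx2, at 103.6 to 178.3 CPM against 35.4 to 47.8 CPM in the first 4. Bar52 lay between, with Tcf15 at 73.6 CPM and Cdx2 at 95.1 CPM. The low-Tcf15 gastruloids were those with the most caudal epiblast and NMP cells (20.3% to 27.4%), and they are the only mesodermal gastruloids that enter the Caudal Epiblast comparison described further on.

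**Figure D2:**
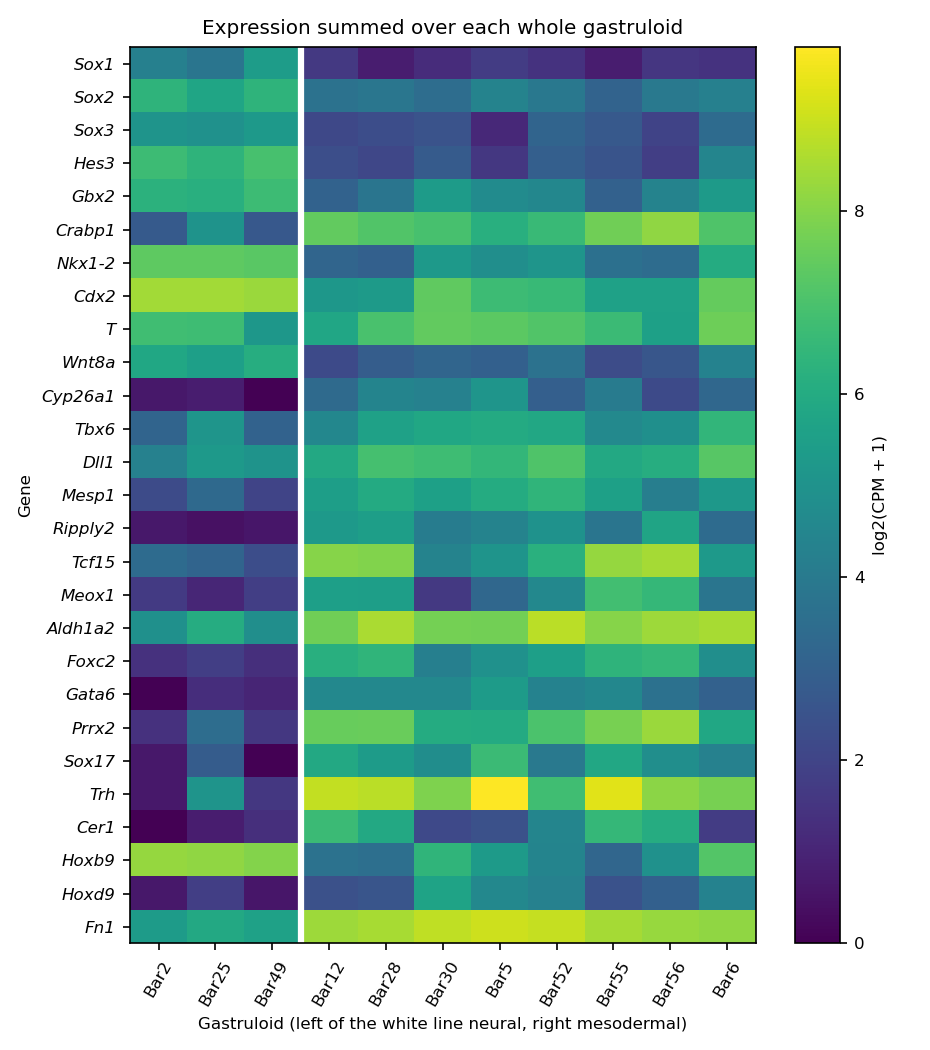
Expression of 27 genes (rows) in each whole gastruloid (columns; neural left of the white line, mesodermal right), coloured by log2(CPM + 1). The upper rows are bright on the left for Sox1, Sox2, Sox3, Hes3 and Nkx1-2, and the somite and endoderm rows are bright on the right, with Tcf15 from 19.5 CPM in Bar30 to 350.5 CPM in Bar56.

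Depth, genes detected and mitochondrial share did not enter the class by any stated rule and were compared over gastruloids with two-sided exact permutation tests, adjusted by Benjamini-Hochberg over 4 measures. The fourth was cell number, whose p (exact permutation, p = 0.0727, adjusted p = 0.0727) enters the adjustment but supports nothing, because the minimum of 30 cells used that number and left out 1 neural gastruloid, Bar22, with 9 cells. Depth, genes detected and mitochondrial share cover all cells of a gastruloid, so class and cell-type makeup cannot be told apart in them. With 3 against 8 gastruloids the smallest p possible is 0.0121. Neural gastruloids yielded 61, 92 and 60 cells, and mesodermal ones 61 to 251 with a median of 170.5. The means were 71.0 ± 18.2 and 162.1 ± 68.8 (SD), and the ranges overlapped. The median cell held 5080, 5048 and 5324 genes in Bar2, Bar25 and Bar49 and 4702 to 5005 in the mesodermal gastruloids. That difference of 257.4 genes, without overlap, passed the exact permutation test (p = 0.0121, adjusted p = 0.0484), but it was 62.3 genes in lane 2 alone (9 gastruloids; exact permutation, adjusted p = 0.741) and 353.0 in lane 3 alone (10 gastruloids; exact permutation, adjusted p = 0.0888). Those sets differ because Bar49 and Bar52 had under 30 cells in lane 2 and Bar2 had under 30 in lane 3. With 1 gastruloid left out the difference was 170.9 to 308.7 genes, in a design too small for 1 measure to pass alone. Median UMIs per cell were 29660 ± 2210 against 27350 ± 1090, and the mitochondrial share of UMIs was 5.41% ± 0.07 against 5.61% ± 0.17 (SD, n = 3 and 8). Neither passed in exact permutation tests (adjusted p = 0.0727 for both). The difference in median UMIs was 215.4 in lane 2 alone and 2415 in lane 3 alone. With 1 gastruloid left out it was 1061 to 3163.

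**Figure D3:**
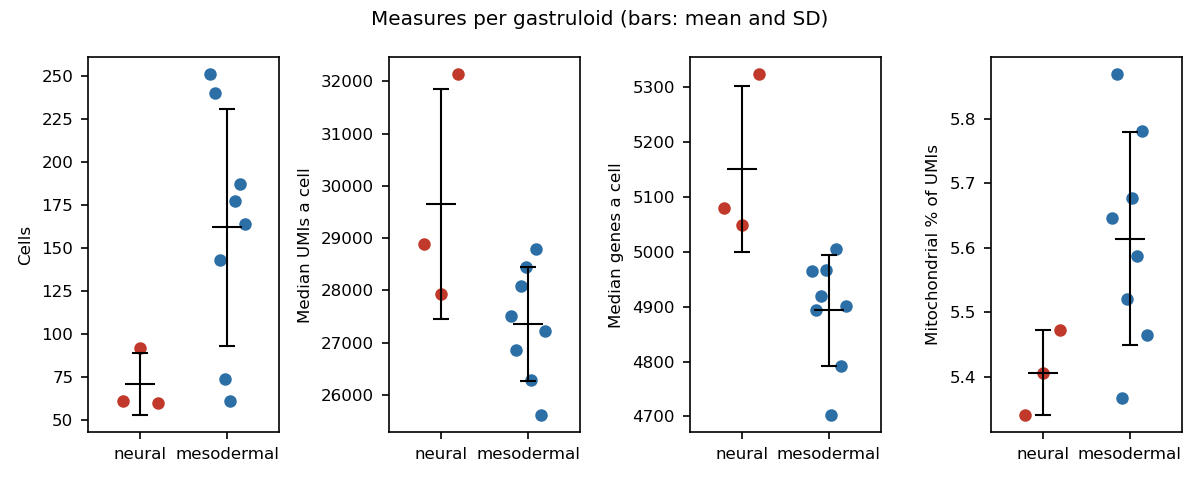
Cells per gastruloid, median UMIs per cell, median genes per cell and mitochondrial percent of UMIs (vertical axes, which do not start at 0) for the 3 neural and 8 mesodermal gastruloids, 1 point each, with bars for the mean and SD. Only in median genes do all neural points (5048 to 5324) lie above all mesodermal ones (4702 to 5005).

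Within cells that carry the same name, Caudal Epiblast, few genes were called between the classes. Among them Hes3, Apoe, Ptn and Odc1 were higher in neural gastruloids, and Nes and Mixl1 were lower. A further 3 lower genes, Top2a, Npm1 and Ppia, lie on chromosome 11, whose tested genes had a negative median difference. This was the only name with at least 2 sums of 10 or more cells in each class. The sums held 11 cells of Bar2 and 18 of Bar25 in the neural class and 21, 11 and 32 cells of Bar30, Bar5 and Bar6 in the mesodermal class; Bar49 had 2 such cells and did not enter. edgeR's quasi-likelihood test with Benjamini-Hochberg adjustment called 11 of 5570 genes higher in the neural class (0.197%) and 6 lower (0.108%), 17 in all (0.305%). At an unadjusted p under 0.05 there were 500 genes, and so short a list of calls from so few sums does not show that the other genes were alike. The calls depend on single gastruloids and on the tool. DESeq2 called 2 genes higher and 3 lower, and edgeR called 3 and 2 without Bar2, 17 and 29 without Bar25, 4 and 5 without Bar30 and 12 and 12 without Bar5. Without Bar6, 2 neural and 2 mesodermal sums remained and edgeR called 0 genes, with 313 at an unadjusted p under 0.05. The log2 differences without Bar6 were 2.37 for Hes3, 1.75 for Apoe, 1.02 for Ptn and -1.41 for Nes (edgeR adjusted p = 0.123, 0.0567, 0.123 and 0.123).

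Hes3 (chr4:152285972-152291662, minus strand, mm10) was at 135.2 CPM in Bar2 and 46.5 in Bar25, against 19.8, 9.91 and 10.6 in Bar30, Bar5 and Bar6. Both neural values were above all mesodermal ones. The edgeR log2 difference was 2.64 ± 0.38 (SE derived from the test statistic, adjusted p = 9.39e-05). Such an SE, here and for the other edgeR differences, is not the spread between gastruloids. Apoe (chr7:19696109-19699188, minus strand), which encodes a lipid-carrying apolipoprotein, was at 218.2 and 126.7 CPM against 44.1, 62.8 and 68.8. Its groups did not overlap either, with an edgeR log2 difference of 1.52 ± 0.23 (adjusted p = 1e-04). Ptn (chr6:36714929-36810220, minus strand), a secreted heparin-binding growth factor of the developing nervous system, was at 190.6 and 162.6 CPM against 94.3, 76.0 and 90.0. The 2 neural sums lay close together for Ptn, and the edgeR log2 difference was 1.00 ± 0.19 (adjusted p = 0.00456). Odc1 (chr12:17544794-17551505, plus strand), the first enzyme of polyamine synthesis, was at 387.3 and 261.8 CPM against 209.8, 168.5 and 181.0, a log2 difference of 0.78 ± 0.16 (edgeR adjusted p = 0.00683). As with Hes3 and Apoe, Bar2 was the higher of the neural sums.

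Mixl1 (chr1:180693043-180697034, minus strand), a homeobox factor of the primitive streak, was at 0 and 8.45 CPM against 33.5, 23.1 and 41.3. Both neural sums were below the 3 mesodermal ones, and the fitted log2 difference was -2.73 ± 0.60 (edgeR adjusted p = 0.0237). The Caudal Epiblast sums held 302658 to 944615 UMIs, so these Mixl1 values rest on few UMIs, as do the mesodermal values of Hes3. Nes (chr3:87971078-87980451, plus strand), an intermediate filament best known from neural progenitors, was lower in the neural class, at 36.9 and 82.4 CPM against 147.5, 211.5 and 131.3 (log2 difference -1.25 ± 0.25; edgeR adjusted p = 0.00683). Top2a (chr11:98992943-99024189, minus strand), a topoisomerase of dividing cells, was at 313.5 and 367.4 CPM against 588.5, 535.3 and 603.4 (log2 difference -0.73 ± 0.12; edgeR adjusted p = 0.000551). Neither Nes nor Top2a overlapped between the classes. The same held for all 17 called genes. With 2 against 3 sums such a separation also arises readily by chance, and its share over all 5570 tested genes is not given. Lack of overlap in these sums is therefore a description and adds no support to the calls.

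Most tested genes of chromosome 11 had lower values in the neural class. In the Caudal Epiblast fit 79.0% of its 500 tested genes had a negative log2 difference, with a median of -0.24, against a median of 0.03 over the genes of all other chromosomes. Chromosome 11 supplied 9.98% of the UMIs in Bar2 and 9.9% in Bar25, against 11.5%, 11.6% and 12.0% in Bar30, Bar5 and Bar6, so the sums did not overlap. It held 3 of the 6 lower genes (Top2a, Npm1 and Ppia) and 0 of the 11 higher ones. In whole gastruloids the shares overlapped, at 11.1%, 10.6% and 11.1% in Bar2, Bar25 and Bar49 and 10.2% to 11.6% in the mesodermal class. What part this chromosome-wide difference has in the calls of single genes was not tested.

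Of the other higher genes, Tex15, known from germ cells, had a log2 difference of 2.71 ± 0.65, Bst2, the antiviral tetherin, 1.51 ± 0.36, and Lgals1, a galectin, 1.04 ± 0.24. Ftl1 and its near-identical copy Ftl1-ps1 were called at 0.72 and 0.41, and reads may be split between them in the counting. The remaining lower genes were the linker histone gene Hist1h1e (-1.05 ± 0.23), Ppia (-0.31) and Npm1 (-0.28), and Malat1 and mt-Co3 were both higher by 0.27. Of 12 other settings, Bst2 kept its call in 2, Lgals1 in 3, Ftl1, Ftl1-ps1, Malat1 and mt-Co3 in 4, Nes and Hist1h1e in 6, Odc1, Ptn, Npm1 and Ppia in 8, Hes3 and Top2a in 9 and Apoe in 10. Tex15 kept it in 3 of 8 and Mixl1 in 5 of 10.

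By list, where 0.305% of all genes were called, Hes3 was the only called gene among 10 tested neural progenitor genes (median log2 difference 0.62, against 0.01 over all genes) and among 15 caudal epiblast and NMP genes (median 0.01). Mixl1 was the only one of 3 Nodal pathway genes and Top2a the only one of 27 cell cycle genes. No Wnt (16 tested), FGF (15 tested), Notch (10 tested) or Hox gene (7 of groups 1 to 4 and 7 of groups 5 to 9) was called, and at that overall share 0 calls in lists of this size say nothing about the pathways. T, at 316.6 and 407.5 CPM against 441.0, 584.8 and 484.9, had a log2 difference of -0.40 (edgeR adjusted p = 0.261). Sox2, at 52.3 and 31.7 CPM against 24.3, 49.6 and 50.8, had one of -0.01 (edgeR adjusted p = 0.999). Fgf8 was at 384.2 and 403.3 CPM against 352.8, 396.5 and 413.9 (edgeR adjusted p = 0.952). The T values did not overlap, while those of Sox2 and Fgf8 did, and a p that misses the threshold does not show that levels were alike.

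Some other properties of the sums also differed. The median cell had 25587 and 26884 UMIs in the neural sums against 33912, 29082 and 30239 in the mesodermal ones, without overlap. The summed level of the 27 neural progenitor genes was 1030 and 821.4 CPM against 653.9, 654.2 and 693.4, also without overlap. The number of them detected overlapped, at 18 and 22 against 19, 15 and 20, as did the share of cells called G2/M, at 45.5% and 38.9% against 66.7%, 36.4% and 50.0%. The part of these in the result was not tested. With mean UMIs per cell as a covariate edgeR called 6 genes higher and 16 lower. That mean overlapped between the classes, so the fit did not adjust for the difference in the median cell.

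Cells that the authors mapped to embryonic caudal epiblast drew on different clusters in the 2 classes. Of 85 such cells in the neural gastruloids 41.2% were Caudal Neurectoderm and 31.8% Caudal Epiblast, whereas of 82 in Bar30, Bar5 and Bar6 58.5% were Caudal Epiblast and 20.7% NMPs. Within them edgeR called 35 of 6692 genes higher in the neural class (0.523%) and 80 lower (1.2%). Of 12 tested neural progenitor genes 6 were higher and 1 lower, of 15 caudal epiblast and NMP genes 3 were higher and 7 lower, of 18 Wnt genes 3 were higher and 4 lower, and of 9 presomitic genes 0 were higher and 6 lower. T was at 203.7, 173.6 and 66.9 CPM in Bar2, Bar25 and Bar49 against 479.8, 521.5 and 384.9 in Bar30, Bar5 and Bar6 (log2 difference -1.60 ± 0.20). Wnt3a, a ligand that maintains the progenitors, was at 19.2, 22.3 and 6.97 CPM against 58.2, 52.2 and 65.4 (-1.83 ± 0.26); it also lies on chromosome 11, whose median in this fit was -0.12. Fgf17, a ligand of the tail bud, was at 57.7, 41.9 and 6.97 CPM against 123.5, 172.3 and 120.2 (-1.85 ± 0.27). All 3 genes were lower in the neural class without overlap, and lowest in Bar49. Of the 18 mapped cells of Bar49, 10 were Caudal Neurectoderm and 1 was Caudal Epiblast. In all differences between these mapped sums, the mix of clusters and the level within a cluster cannot be told apart. Other caudal genes were higher without overlap: Nkx1-2 was at 202.6, 189.7 and 229.8 CPM against 124.9, 124.7 and 141.5 (0.61 ± 0.12; edgeR adjusted p = 0.004), and Wnt8a had a log2 difference of 0.87 ± 0.23 (edgeR adjusted p = 0.0487). Sox3 was at 34.0, 27.6 and 34.8 CPM against 12.8, 2.27 and 12.9 (1.51 ± 0.33), and Tubb3, a neuronal tubulin, at 21.5, 32.9 and 16.7 CPM against 1.42, 0 and 7.61 (2.42 ± 0.47). Of the 17 genes called under the cluster name, 7 were also called here (Apoe, Hes3, Hist1h1e, Mixl1, Nes, Odc1 and Ptn), and Bar2, Bar25, Bar30, Bar5 and Bar6 entered both fits.

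Across names, adding Early Spinal Cord cells to Caudal Epiblast cells, Ptn, Apoe, Hes3 and Odc1 stayed higher and Nes lower, and Mest and Gbx2 joined the higher genes. The Early Spinal Cord sums held 18, 22 and 13 cells of Bar2, Bar25 and Bar49 and 17 cells of Bar6, the only mesodermal gastruloid with enough, so that side of the comparison rests on 1 gastruloid. With limma-voom, cluster name as a term and the gastruloid as a random block, 21 of 7134 genes were higher in the neural class (0.294%) and 26 lower (0.364%). Bar2, Bar25 and Bar6 entered with sums of both names. The estimated block correlation was -0.04, so the p-values of this fit treat sums of the same gastruloid as nearly independent. Without Bar2 limma called 8 and 16, and without Bar6 the fit was not run, since no mesodermal Early Spinal Cord sum is left. The 47 called genes were 0.659% of those tested. In 9 of the 47 the values of the classes did not overlap over the names together. Those ranges pool the sums of both names, so differences between the names enter them. The share without overlap over all tested genes is not given, so the 9 are a description only. The fit shared 12 genes with the Caudal Epiblast calls, 70.6% of those and 25.5% of its own, and the Caudal Epiblast sums entered both fits. Of 81 tested ribosomal protein genes (by Rpl and Rps symbols, without pseudogenes) 6 were higher and 7 lower, with log2 differences of 0.14 to 0.35 in size. All 7 lower ones lie on chromosome 11 and all 6 higher ones elsewhere. Of the 26 lower genes 20 are on chromosome 11, Top2a among them, and of the 21 higher genes 0. Over the 615 tested genes of that chromosome 85.5% had a negative difference (median -0.27, against 0.03 for the other chromosomes). In Early Spinal Cord cells it supplied 12.0%, 10.5% and 11.7% of UMIs in Bar2, Bar25 and Bar49 and 13.6% in Bar6. Its part in these calls was not tested. The 6 lower genes elsewhere were Ago1, Mgst1, Nes, Sema6a, Ttc28 and mt-Co1.

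Ptn in Early Spinal Cord cells was at 739.5, 594.6 and 761.2 CPM in Bar2, Bar25 and Bar49 and at 302.3 in Bar6. All neural values were above Bar6, and the difference at fixed name was 1.11 ± 0.12 (limma adjusted p = 3.6e-08). Hes3 was at 93.8, 102.1 and 161.2 CPM there, against 53.5 in Bar6 (1.78 ± 0.31; limma adjusted p = 0.000465). Mest (chr6:30723547-30748465, plus strand), an imprinted gene expressed from the paternal copy, was at 193.2, 150.9 and 170.1 CPM in Early Spinal Cord against 71.9, and at 27.7 and 29.6 CPM in Caudal Epiblast against 18.3, 16.5 and 12.7. Neural values of Mest were thus higher without overlap in both names, in Early Spinal Cord against Bar6 alone. In Caudal Epiblast alone Mest did not pass (log2 difference 0.93 ± 0.46; edgeR adjusted p = 0.547). The joint difference was 1.16 ± 0.21 (limma adjusted p = 0.000868). Gbx2 (chr1:89927956-89931179, minus strand), a homeobox factor of the hindbrain and caudal neural plate, was at 90.1, 72.5 and 94.0 CPM in Early Spinal Cord against 36.9. In Caudal Epiblast its values overlapped, at 55.3 and 35.9 CPM against 38.0, 29.7 and 20.1, and the joint difference was 0.93 ± 0.23 (limma adjusted p = 0.0425). Idi1, an isoprenoid isomerase (0.58 ± 0.13), Mycbp2, a ubiquitin ligase (0.81 ± 0.19), and Usp37, a deubiquitinase (0.89 ± 0.23), were higher, and Mgst1, a glutathione transferase (-0.95 ± 0.24), and Ago1, an Argonaute protein (-1.02 ± 0.25), were lower. Of 9 other settings, Usp37 kept its call in 2, Mycbp2 and Mgst1 in 4, Ago1 in 5, Idi1 and Gbx2 in 6, Nes in 7, Mest in 8, and Ptn, Apoe, Hes3 and Odc1 in all 9. None of the 9 settings left out Bar6, since this fit cannot be run without it. The highest adjusted p by limma was 0.268 for Gbx2, 0.225 for Nes and 0.086 for Mest. Of the 9 tested Hox genes of groups 5 to 9 all 9 had a negative difference with a median of -0.68, 5 of them on chromosome 11. None was called, where 0.659% of all genes were, so the count says nothing about these genes.

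**Figure D4:**
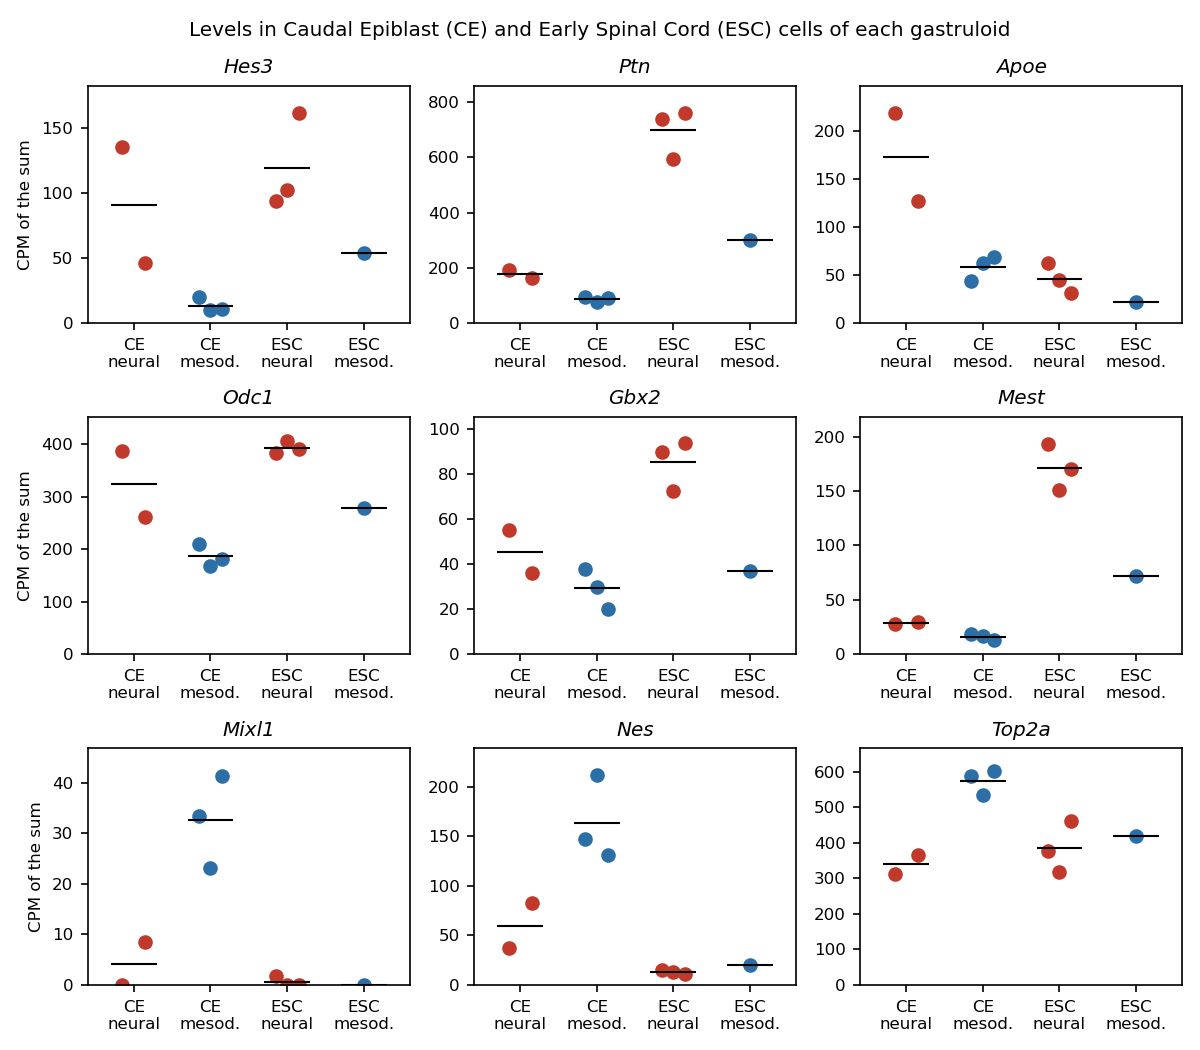
CPM (vertical axes) of 9 genes in the summed Caudal Epiblast (CE) and Early Spinal Cord (ESC) cells of single gastruloids, neural in red and mesodermal in blue, with bars for the mean. Ptn has higher values in ESC than in CE cells in both classes, and the neural points lie above the mesodermal ones in each, Mixl1 and Nes are mainly CE transcripts and lower in the neural class there, and the mesodermal ESC column is Bar6 alone.

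The same contrast was fitted in gastruloids that the rule had not used. In the third MULTI-seq experiment, Caudal Epiblast sums of day 4 came from 2 neural and 13 mesodermal gastruloids, and edgeR called 57 of 9599 genes higher (0.594%) and 108 lower (1.13%). All 17 genes called in pool B were tested there: 14 had the same sign, 5 were called in the same direction and 0 in the opposite one. Ptn was at 272.3 and 318.0 CPM in the neural sums, above the mesodermal range of 95.9 to 167.8 (log2 difference 1.20 ± 0.11; edgeR adjusted p = 1.94e-08). Hes3 was at 60.1 and 70.7 CPM, above 19.2 to 53.7 (0.96 ± 0.20; edgeR adjusted p = 0.00613). Nes was at 74.3 and 83.6 CPM, below 93.9 to 223.8 (-0.93 ± 0.19; edgeR adjusted p = 0.00559), and Mixl1 and Tex15 were the other called genes. Apoe did not pass in these Caudal Epiblast cells, with 97.1 and 99.9 CPM inside the mesodermal 36.7 to 136.0 (0.16 ± 0.20; edgeR adjusted p = 0.844). Top2a did not pass either (-0.25 ± 0.11; edgeR adjusted p = 0.356), and Hist1h1e had the opposite sign (0.18 ± 0.13). Some list genes that were not called in pool B were called in these cells. T was at 288.2 and 293.2 CPM in the neural sums, below the mesodermal 351.3 to 574.2 (-0.69 ± 0.11; edgeR adjusted p = 0.000614). Nkx1-2 was at 186.7 and 219.0 CPM, above 109.0 to 175.7 (0.49 ± 0.10; edgeR adjusted p = 0.00559), and Fgf17 was lower with overlapping values (-0.89 ± 0.16; edgeR adjusted p = 0.00222). In pool B their differences were -0.40, 0.63 and -0.73 (edgeR adjusted p = 0.261, 0.12 and 0.254). Of 16 tested caudal epiblast and NMP genes 3 were higher and 2 lower in the third experiment, and of 14 presomitic genes 0 were higher and 5 lower. On chromosome 11, 74.9% of 782 tested genes had a negative difference there (median -0.12, against 0.00 for the other chromosomes). Its share of UMIs was 10.4% and 10.2% in the neural sums, inside the mesodermal 9.96% to 12.3%. In the other names of that experiment the share of negative differences on chromosome 11 was 52.9% in NMPs (median -0.02), 56.8% in Early Posterior PSM (median -0.06) and 57.2% in Early Spinal Cord (median -0.03). In pool B at day 4.5 it was 82.9% in NMPs (median -0.25) and 59.3% in Early Spinal Cord (median -0.03). Gbx2 and Mest, called across names in pool B, were also higher in these Caudal Epiblast cells, by 1.06 ± 0.19 and 0.97 ± 0.21 (edgeR adjusted p = 0.00144 and 0.00841).

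**Figure D5:**
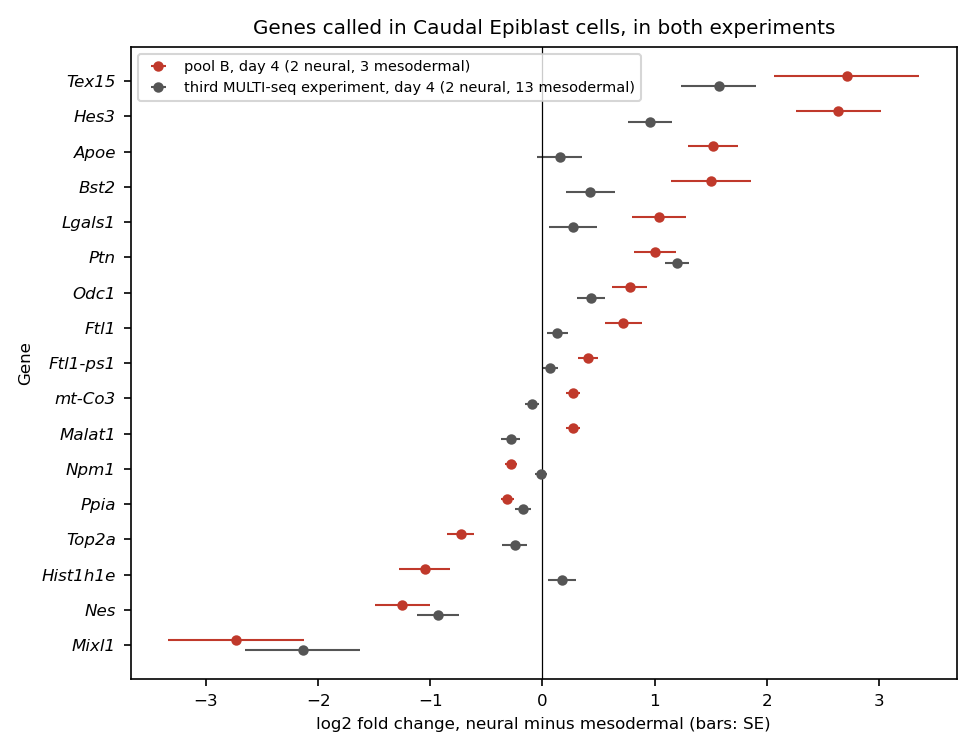
Log2 fold change, neural minus mesodermal, with its SE (horizontal axis) of the 17 genes called in Caudal Epiblast cells of pool B, in pool B (red) and in the third MULTI-seq experiment (grey). Hes3, Ptn and Tex15 lie right of 0 and Nes and Mixl1 left of 0 in both experiments, while Apoe is at 1.52 in pool B and 0.16 in the other.

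In Early Spinal Cord cells, Hes3, Ptn and Mest were higher in the neural class of the third experiment as well. With 2 neural and 3 mesodermal sums, edgeR called 27 of 7841 genes higher (0.344%) and 60 lower (0.765%), with log2 differences of 1.36 ± 0.26 for Hes3 (adjusted p = 0.00222), 0.84 ± 0.07 for Ptn (adjusted p = 2.52e-10) and 0.95 ± 0.12 for Mest (adjusted p = 5.88e-06). Of the 47 genes called across names in pool B, all were tested there, 36 had the same sign, 11 the opposite one, and 7 were called in the same direction. Gbx2 did not pass there, at 0.24 ± 0.14 (edgeR adjusted p = 0.652), nor did Apoe at 0.55, Odc1 at 0.15 or Nes at 0.08 (edgeR adjusted p = 0.205, 0.591 and 0.964). Ptn was at 761.7 and 799.2 CPM there against 371.0 to 441.7. Of the neural progenitor list, Sox2 was also higher there (0.69, edgeR adjusted p = 0.0078), while Hes5 was lower (-1.24, edgeR adjusted p = 3.44e-05). The caudal genes Fgf8, Fgf17 and T were lower, at -1.99, -2.29 and -1.38 (edgeR adjusted p = 1.23e-11, 5.86e-10 and 3.44e-05). In pool B at day 4.5, with 5 neural and 6 mesodermal sums, edgeR called 30 of 7974 genes higher (0.376%) and 36 lower (0.451%). Hes3 (0.92 ± 0.21; adjusted p = 0.0127), Ptn (0.67 ± 0.09; adjusted p = 5.64e-06) and Gbx2 (0.43 ± 0.11; adjusted p = 0.0395) were among the higher genes by edgeR at day 4.5. Mest was not, at 0.21 ± 0.12 (edgeR adjusted p = 0.73). Sox2 was higher at day 4.5 too (0.77, edgeR adjusted p = 1.19e-05), and Hes5 did not pass (0.13, edgeR adjusted p = 0.872). Fgf8, Fgf17 and T were lower, at -1.17, -1.56 and -1.92 (edgeR adjusted p = 1.64e-06, 3.03e-07 and 1.22e-06). Of the 47 genes 37 had the same sign at day 4.5, and 5 were called in the same direction. In Early Posterior PSM cells of the third experiment, with 2 neural and 14 mesodermal sums, edgeR called 92 of 10800 genes higher (0.852%) and 93 lower (0.861%). Of the 17 genes 16 were tested there, 14 had the same sign as in pool B, and Apoe, Bst2, Ftl1-ps1, Lgals1 and Malat1 were called in the same direction. Apoe was at 130.4 and 132.9 CPM in the neural sums, above the mesodermal range of 25.9 to 70.7 (1.47 ± 0.28; edgeR adjusted p = 0.00384), and Bst2 was higher by 2.36 ± 0.30 (edgeR adjusted p = 4.01e-05). Of the 47 genes called across names 46 were tested there, 26 with the same sign and 20 with the opposite one. From this set 3 genes were called in the same direction and 2, Ccng1 and Nes, in the opposite one. Nes, a member of both sets, was higher in the neural class by 1.32 ± 0.22 (edgeR adjusted p = 0.0012). T, lower in Caudal Epiblast cells of the same experiment, was higher in these, at 87.7 and 148.0 CPM against 44.6 to 75.2 (0.90 ± 0.18; edgeR adjusted p = 0.00706). Nkx1-2 was higher there too (2.58 ± 0.50; edgeR adjusted p = 0.00489), and Fgf17, with a difference of 1.58 ± 0.46, did not pass (edgeR adjusted p = 0.081). In NMP cells of the third experiment, with 2 neural and 12 mesodermal sums, edgeR called 0 of 8102 genes higher and 1, Fgf17, lower (0.0123%), with 549 at an unadjusted p under 0.05. None of the 17 genes was called there, and 11 of the 16 tested had the same sign. Whether the differences vary with day, experiment or name was not tested.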

How the data were processed

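Single-cell RNA-seq of individually barcoded gastruloids was used. The authors deposited UMI counts per gene and cell barcode, produced by Cell Ranger 6.0.0 according to the file headers and, per the submitters' processing notes, against mm10; those notes also name Seurat, and the sources used here name no gene annotation. The members, gene lists and genes named were chosen with earlier results of these data known. Final cells, gastruloid calls, classes, cluster names, phases and mapped types came from the authors' deposited cell table. Cells called doublet (7.02% and 7.84% in lanes 2 and 3) or negative for the MULTI-seq barcode (2.76% and 4.25%) entered no sum, and no doublet caller was run. The samples called lanes here were taken as splits of 1 pool, so counts were summed over them per gastruloid and per name. Sums under 10 cells and gastruloids under 30 cells were left out. Tests used edgeR 4.0.16 (TMM, filterByExpr, quasi-likelihood) within a name and limma 3.58.1 (voom, duplicateCorrelation, estimated block correlation -0.04) across names, in R 4.3.3, with calls at an adjusted p under 0.05. DESeq2 1.42.0 was an alternative, and scipy 1.17.1 gave intervals. The SE given for an edgeR difference is its absolute value divided by the square root of the test's F statistic. It rests on a variance moderated over genes and does not measure the spread between gastruloids.

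On simulated counts, edgeR's Caudal Epiblast fit (5537 genes) recovered 68.8% of 2-fold and 98.9% of 4-fold changes. The fit across names (7081 genes) recovered 68% and 93.9%. Those counts had 1 dispersion for all genes (0.0045) and no shift shared by the genes of a gastruloid or chromosome. Recovery in the real sums, which may be lower, was therefore not measured. Coordinates are GENCODE vM21 gene bounds on mm10, matched by Ensembl identifier for 32158 of 32285 genes. Named were, per fit, up to 10 called genes a direction with the largest change among those whose classes did not overlap, called genes of the lists, and for whole gastruloids genes of the lists; Ptn, Apoe, Odc1 and Nes across names, Rarg, Fn1, the Hox and cell cycle genes, the genes given for other gastruloids and for mapped cells, and chromosome 11 were picked after their values were seen. Differences by chromosome use every tested gene with a GENCODE match. Nothing says whether gastruloids came from separate cultures.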

Additional observations from a re-analysis of the deposited data

Results flagged for a closer look

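In the mesodermal class 40 groups of values were screened for a gastruloid far from the others, and 3 had one, where chance gives about 1 in 20, close to that number. All 3 are cell-type shares or whole-gastruloid sums, which are treated as having set the class, so they are given as descriptions with no test. Bar6 had 15.9% of cells with a neural name, and the next highest mesodermal gastruloid 3.28%. Bar6 also had Hes3 at 20.7 CPM over the whole gastruloid, and the next highest 6.79 CPM. Bar30 had Hoxd9 at 50.0 CPM, and the next highest 22.9 CPM. Bar6 supplies the only mesodermal Early Spinal Cord sum and the largest mesodermal Caudal Epiblast sum, of 32 cells.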

How the results depend on the processing

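In Caudal Epiblast (11 genes higher and 6 lower), DESeq2 called 2 and 3 (142 at an unadjusted p under 0.05). Mean UMIs per cell as a covariate gave 6 and 16, and no low-count filter gave 14 and 20. A minimum of 5 cells, chosen after seeing the data, gave 5 and 1, and cells mapped to embryonic caudal epiblast gave 35 and 80. Leaving out 1 gastruloid gave 0 to 17 higher and 0 to 29 lower: 0 and 0 without Bar6, 3 and 2 without Bar2, 17 and 29 without Bar25, 4 and 5 without Bar30, and 12 and 12 without Bar5. Across names (21 higher, 26 lower), the covariate gave 32 and 46, the minimum of 5 cells 16 and 12, and leaving out 1 gastruloid 8 to 25 and 16 to 32, lowest without Bar2. In Caudal Epiblast, lane 2 alone and leaving out Bar2 or Bar25 left 1 neural sum, assumed to vary like the others. The cause was not tested. The neural share moved from 74.0% to 27.5% with mapped types. The difference in median genes was 62.32 in lane 2 (9 gastruloids), 353.0 in lane 3 (10) and 170.9 to 308.7 with 1 gastruloid left out, where the smallest exact p possible (0.0167 or 0.0444) cannot pass over 4 measures alone. None of the genes run under these alternatives (the 17 of Caudal Epiblast and 22 across names) reversed: gene-by-alternative calls held in 101 and were lost in 97 in Caudal Epiblast, and held in 147 and were lost in 51 across names. By gene this ran from 2 of 12 (Bst2) to 10 of 12 (Apoe) in Caudal Epiblast, and across names from 2 of 9 (Usp37) to 9 of 9 (Apoe, Hes3, Odc1, Ppia and Ptn). Not run for too few sums were a minimum of 20 cells, lane 3 alone, and, across names, lane 2 alone or without Bar6; a minimum of 100 cells left 0 neural gastruloids. No paired analysis was possible because the replicate numbers are samples of a pool, taken here as lanes, which both classes share.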

Other observations

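Bar22, classed neural, had 9 cells and was left out. They were 3 Caudal Neurectoderm, 3 Early Spinal Cord, 2 Late Neurectoderm and 1 Caudal Epiblast cells. Its summed counts gave 117.0 CPM of Hes3, 927.0 of Ptn, 120.0 of Sox2, 146.0 of Nkx1-2, 299.0 of Cdx2, 296.0 of Hoxb9, 35.8 of T, 3.25 of Tcf15 and 6.51 of Trh.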
